A study of Mus musculus with 59 samples.

Results

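Long intergenic noncoding RNAs (lincRNAs) were measured in 3 tissues (lung, liver, forestomach) from male Muta™Mouse of about 16 weeks dosed with benzo[b]fluoranthene (BbF), a polycyclic aromatic hydrocarbon. The members were chosen by name alone, as the probes that the array maker gives as a stretch of the mouse genome with a strand (F, forward, or R, reverse) in place of a gene. There were 16181 such probes of 55681 on the array (29.1%), and they covered 4607 regions with a strand among 37854 targets. The regions lay at 3540 positions, of which 1067 carried probes for both strands. Their length ran from 62 to 7128487 bases with a median of 10676, and regions that overlapped on a strand joined into 3362 loci. A region had between 1 and 10 probes, most often 3 (1809 regions), so the probes of a region are not independent measurements. Positions are given in the build named in the array files, mm9 (NCBI37).

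Mice received olive oil (vehicle) or BbF in olive oil at 25 (low), 50 (medium) or 100 (high) mg/kg-bw/day by oral gavage for 28 days, and tissues were taken 72 h after the last dose. Muta™Mouse is a transgenic strain that carries a bacterial reporter for mutation assays, also in the vehicle mice. Each group held 5 mice, except the low-dose lung with 4, which gave 59 arrays (19 lung, 20 liver and 20 forestomach). The mice were separate animals, the same 20 animals gave the 3 tissues, and the 3 doses of a tissue were compared with the same vehicle mice. The labels name the compound in conflicting ways (BbF in titles and treatment text, benz(a)anthracene in an exposure label), and it is called BbF here because the doses are those of BbF.

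As background, lincRNAs are transcribed from stretches between protein-coding genes, are mostly spliced and polyadenylated, and encode no known protein. Most are far less abundant than mRNAs and many are found in few tissues. Some act in the nucleus on chromatin, on transcription of neighbouring genes or on nuclear bodies, and several are targets of the DNA damage-activated factor p53. For most regions on this array no function is known to the files, and none is given below.

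Each value is the log2 ratio of tissue RNA (Cy5) to a reference RNA pool from mouse cell lines (Cy3) on the same array. A probe is called detected when the scanner software marks its Cy5 signal as well above background. A probe is called changed when its adjusted p is 0.05 or less, over all 55681 probes, and its change is 1.5-fold or more. Tissue RNA was measured, so fewer cells of a type and less RNA per cell cannot be told apart.

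Several arrays stood apart. The 8 arrays of the third liver slide (1 vehicle, 2 low, 2 medium and 3 high) detected 1.92 to 2.55% of the lincRNA probes, against 15.6 to 27.6% on the other 12 liver arrays. The lung array of medium-dose mouse 13 detected 54.7%, and the next medium-dose lung array 28.0%. Identity genes matched the tissue labels (Sftpc and Scgb1a1 in lung, Alb and Apoa2 in liver, Krt13 in forestomach, each with its lowest array in its own tissue above the highest elsewhere), except that Krt4, an epithelial keratin, stood at 5.73 in the lung of low-dose mouse 6 and at 5.41 in the lowest forestomach. Alb read 4.79 and 4.30 in the forestomachs of medium-dose mice 12 and 15, below the lowest liver at 5.96. Scgb1a1 read up to 5.46 in forestomach, below the lowest lung at 7.84. The main counts of called probes per comparison are given with and without the arrays concerned. Detection counts that use dosed mice include the lungs of mice 13 and 6.

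Most lincRNA probes were dim. On lung arrays 21.3 to 54.7% of them were detected (median 25.4%), against 54.4 to 74.6% of all other probes. In forestomach the range was 16.0 to 30.6% (median 23.3%), against 49.3 to 60.7% of the others. On the 12 liver arrays of the first and second slides it was 15.6 to 27.6% (median 21.9%), against 45.7 to 53.8%. On every array the lincRNA share was the lower of the pair, and the other probes' share was 1.36 to 7.84 times as high. In the cell-line reference 3719 lincRNA probes (23.0%) were detected on every array, against 53.3% of the other probes.

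**Figure D1:**
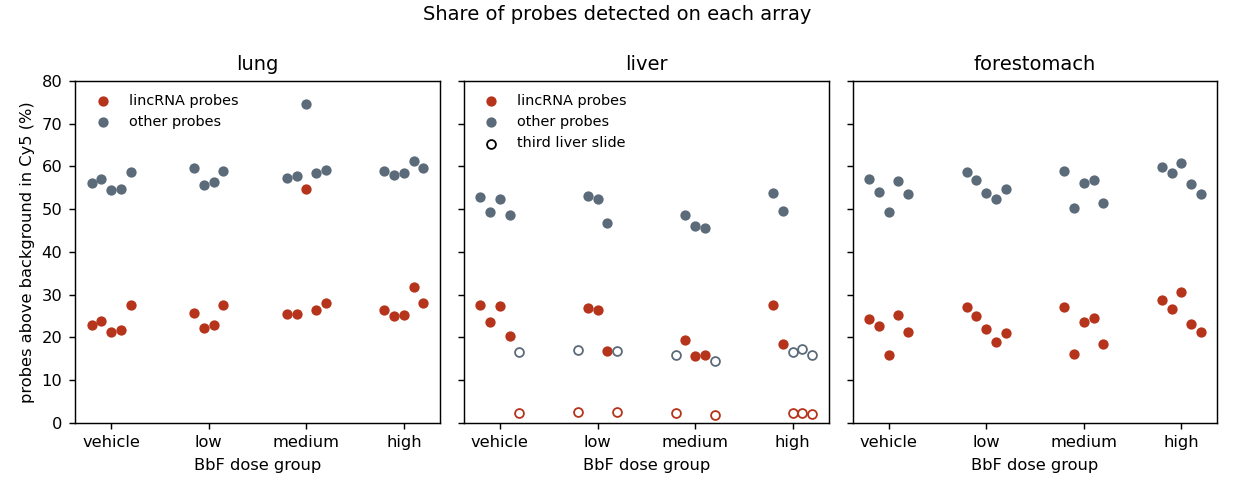
Share of probes detected in Cy5 on each of 59 arrays (vertical axis, percent) by tissue and dose group, with lincRNA probes and all other probes as separate points and the third liver slide as open circles. The lincRNA points lie below the others on every array, and the 8 arrays of the third liver slide lie between 1.92 and 2.55%.

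The share detected did not separate the tissues of vehicle mice. It was 23.5% ± 2.53 in lung, 20.3% ± 10.4 in liver and 21.9% ± 3.63 in forestomach (SD, n = 5 each). Lung exceeded liver by 3.23 percentage points (exact permutation test, two-sided, p = 0.698) and forestomach by 1.62 (exact p = 0.476), and forestomach exceeded liver by 1.61 (exact p = 0.881), with an adjusted p of 0.881 over the 3 comparisons. Without the third liver slide the differences from liver changed sign, to -1.24 for lung and -2.85 for forestomach.

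With vehicle mice alone, and the third liver slide left out, 2895 lincRNA probes (17.9%) were detected on every lung array, 2695 (16.7%) on every liver array and 2372 (14.7%) on every forestomach array. Of the other probes 51.7%, 45.3% and 47.5% were. With the third slide the liver number was 379 (2.34%). A common core of 1658 lincRNA probes (10.2%) in 1011 regions was detected on every vehicle array of all 3 tissues, against 39.0% of the other probes. At the other end, 8279 (51.2%) were detected on no vehicle array, against 27.2%, and 4843 (29.9%) on none of the 59 arrays, against 15.4%. Of those seen on no vehicle array, 231 were detected in the cell-line reference on every array.

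Some positions had probes for both strands, and where any strand was detected there, a single strand was more common than both. Of the 1067 such positions, 181 had a probe of each strand detected on every vehicle lung array, 194 of the forward strand alone, 270 of the reverse strand alone and 422 of neither. In liver without the third slide the corresponding numbers were 257, 198, 228 and 384, and in forestomach 163, 196, 247 and 461. Among positions with any strand detected, 71.9% had a single strand in lung, 62.4% in liver and 73.1% in forestomach. Few lincRNA probes met the rule of detection on every vehicle array, so a strand not detected is not shown to be silent. Whether single strands were more common than low detection alone would give was not tested. Probes of a region often differed among themselves as well. Of 3382 regions with at least 3 probes, 230 had all probes detected in lung, 1002 some and 2150 none.

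Tissue-restricted lincRNA probes were taken as those detected on every vehicle array of a tissue and on no vehicle array of the other two. There were 152 for lung (118 regions), 55 for forestomach (41 regions) and 3 for liver, or 303 (265 regions) for liver without the third slide. They made up 5.25% of the lincRNA probes detected in lung, 11.2% in liver and 2.32% in forestomach, where the shares among other probes were 2.86, 3.11 and 2.21%. The vehicle livers without the third slide also detected more lincRNA probes in the Cy3 reference, 46.1 to 50.0%. Vehicle lungs detected 33.5 to 41.1% and vehicle forestomachs 31.2 to 39.0%. The part of this array difference in the liver count was not tested.

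In the dosed mice, which the definition did not use, the pattern held best for lung probes and least for liver probes. A lung-restricted probe was detected on average on 96.8% of the 14 dosed lung arrays and on 7.09% of the 23 dosed arrays of the other tissues. For forestomach the values were 93.0% (15 arrays) and 7.69% (22 arrays), and for liver 57.9% (8 arrays) and 8.4% (29 arrays). Of the 152 lung probes, 66 were detected on all dosed lung arrays and on none of the others. For liver this held for 13 of 303, and for forestomach for 10 of 55.

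Single arrays carried much of what was seen in the wrong tissue. The lung of medium-dose mouse 13 showed 265 of the 303 liver-restricted probes, the lung of high-dose mouse 19 showed 120, and the median dosed lung showed 8. The liver marker Alb read 0.22 and 0.35 on those arrays, within the range of the other lung arrays (0.01 to 0.78). In the forestomach of high-dose mouse 18, 136 of them were detected and on the next array 21. The lungs of mice 13 and 19 detected 67.8 and 48.2% of the lincRNA probes in the Cy3 reference. On the other lung arrays this share was 33.5 to 41.1%. The forestomach of mouse 18 had 45.0%, and the next forestomach array 41.2%. The lung of low-dose mouse 6 showed 13 of the 55 forestomach-restricted probes, and its Krt13 stood at 4.17, whereas mouse 13 showed 24 with Krt13 at -0.90. Their part in the counts was not tested.

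The restricted probes named next were chosen and ranked on the vehicle arrays, so their separation there is a condition of the choice. Named by the size of the smaller of the differences from the other tissues, the most distinct lung probe lay in chr8:93337794-93348869_R. Its log2 ratio was 4.25 ± 0.48 in vehicle lung, -0.00 ± 0.13 in liver and 0.10 ± 0.10 in forestomach (SD, n = 5 each), and it was well above background on no liver or forestomach vehicle array. Its Cy5 signal in lung was at least 14.4-fold higher than elsewhere. Such a bound is taken from the Cy5 channel after loess and Aquantile, against the higher of the lowest well-detected signal and the probe's own signal, and is open to dye bias. The next lung probes were those in chr10:81069014-81083448_F (at least 6.10-fold), chr16:4867322-4874772_F (at least 5.18-fold), chr1:90340543-90359181_R (at least 4.94-fold), chr13:83867711-83878140_F (at least 3.89-fold) and chr9:81536195-81538236_F (at least 3.59-fold).

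In liver the leading probe was in chr13:28537223-28539860_R, with 4.96 ± 1.35 in vehicle liver against 0.13 ± 0.13 in lung and 0.15 ± 0.09 in forestomach, or at least 34.0-fold. It was detected on every liver array, also on the third slide. The others were in chr4:135896689-135918414_R (at least 6.63-fold) and chr8:67542714-67561694_F (at least 5.61-fold). The probe in chr4:135896689-135918414_R was not called with dose: it read 2.91 ± 1.13 in vehicle liver and 0.85 ± 1.23 at the high dose (-2.06, adjusted p = 0.588), and 3 of the 5 high-dose arrays were on the third slide.

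In forestomach the leading probes were in chr4:155585650-155608700_R (3.81 ± 0.38, at least 19.3-fold), chr12:111079867-111080561_R (4.52 ± 0.96, at least 12.1-fold) and the overlapping regions chr1:195327945-195336595_R (at least 9.49-fold) and chr1:195332659-195335997_R (at least 5.80-fold). Probes in chr6:126766225-126771309_F (at least 5.68-fold) and chr6:39205913-39248468_F (at least 3.39-fold) followed. In the lung of mouse 6, whose keratins were high, the first 4 of these read 0.40, 0.74, 1.13 and 1.19.

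**Figure D2:**
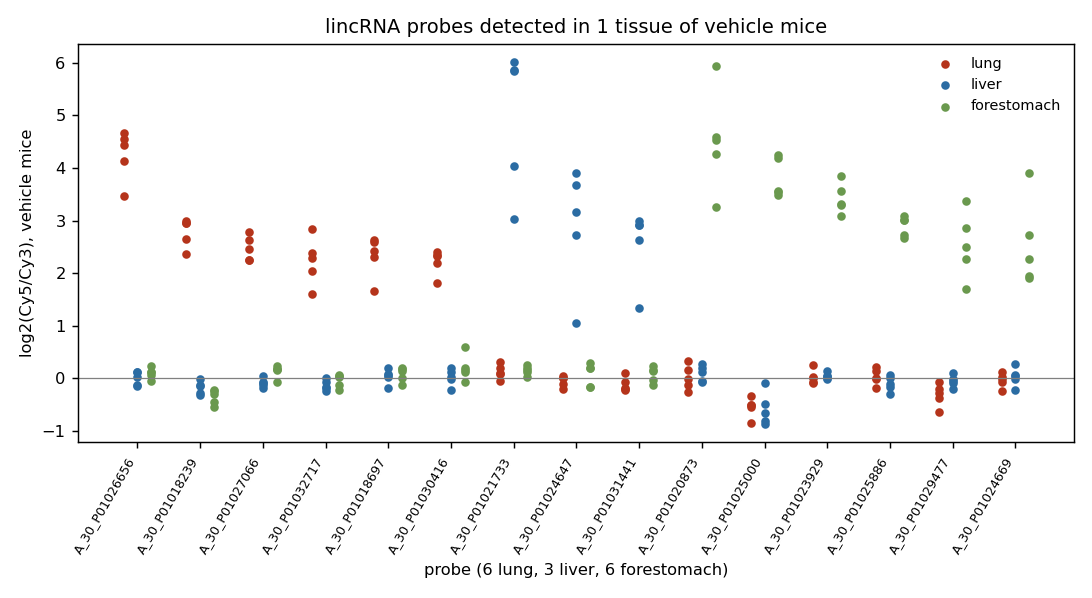
Log2 ratio to the reference (vertical axis) of the 15 tissue-restricted lincRNA probes named in the text (horizontal axis, 6 of lung, 3 of liver and 6 of forestomach, by probe), with a point for each of 5 vehicle mice in lung, liver and forestomach. The points of a probe's own tissue lie above those of the others, with a mean of 4.96 in liver for the leading liver probe (A_30_P01021733) against 0.13 in lung. The probes were chosen on these same arrays, so the separation is not added evidence.

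Levels differed widely between the tissues of vehicle mice. Between lung and liver 1451 lincRNA probes in 817 regions differed, 806 higher in lung and 645 higher in liver. Between lung and forestomach 1230 probes (719 regions) differed, 625 higher in lung and 605 lower. Between forestomach and liver 968 (571 regions) differed, 565 higher in forestomach and 403 lower. Without the third liver slide 1508 lincRNA probes differed between lung and liver (14342 of all 55681) and 1101 between forestomach and liver (12334 of all). With all arrays the counts are 8.97, 7.60 and 5.98% of the lincRNA probes. Of all probes 24.4, 19.1 and 20.1% were called in the same comparisons, and of the other probes 30.8, 23.8 and 25.9%.

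The question of the dose series was whether BbF changed transcript levels in each tissue. In lung it changed lincRNA levels at every dose. The low dose called 21 probes in 13 regions (20 higher, 1 lower), the medium dose 17 probes in 13 regions (13 higher, 4 lower) and the high dose 76 probes in 43 regions and 37 loci (49 higher, 27 lower). The trend over dose called 61 probes (44 higher, 17 lower). Over all probes the shares called were 0.345% for the low dose (0.327% higher, 0.018% lower), 0.469% for medium (0.365% and 0.104%), 1.45% for high (1.03% and 0.417%) and 1.23% for the trend. The lincRNA shares were lower, at 0.130, 0.105 and 0.470% for the low, medium and high dose. The median change at the high dose was -0.01 for the lincRNA probes and -0.00 for all probes on the log2 scale.

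The split between increases and decreases depended on the scaling. With arrays centred on their median in place of loess, the high dose had 148 increases and 1 decrease, where the calls over all probes went from 807 to 3504. The low dose had 20 increases and 0 decreases (225 of all probes), the medium dose 20 and 0 (402 of all), and the trend 114 and 1. With the slide as a block the medium dose had 13 increases and 10 decreases. In the authors' own processed table the low dose had 16 increases and 4 decreases and the medium dose 11 and 6. Without mouse 13 the medium dose had 29 called probes in place of 17, and without mouse 6 the low dose again had 21.

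Signal level moved with the share called. By quartile of mean signal over all probes in lung, 35.5% of the lincRNA probes lay in the dimmest and 4.99% in the brightest, against 20.7 and 33.2% of the others. In the dimmest quartile no probe of either kind was called at the high dose. In the second 0 of 5996 lincRNA probes were called, against 36 of 7924 others (0.454%). In the third 1.35% were called (49 probes), against 2.75% of the others, and in the brightest 3.35% (27 probes), against 3.14%. The lincRNA share was the lower in the middle quartiles and not in the brightest. The part of signal level in the overall share was not tested.

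**Figure D3:**
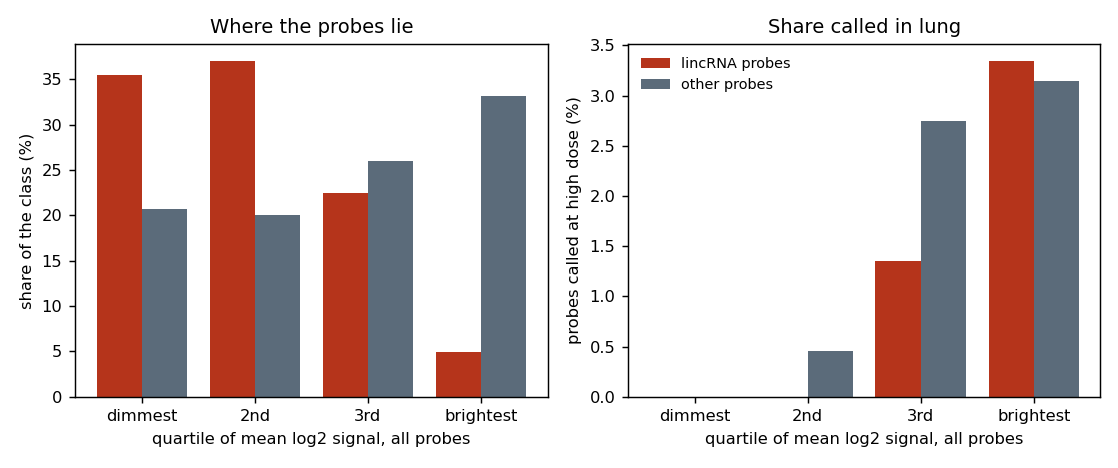
Left, share of lincRNA probes and of other probes (vertical axis, percent of the class) in each quartile of mean log2 signal over all lung probes. Right, share of each called at the high dose in lung: in the brightest quartile 3.35% of the lincRNA probes and 3.14% of the others, in the dimmest none of either.

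Of the 89 lincRNA probes called at any lung dose (51 regions), 7 probes in 5 regions were called at all 3 doses. A total of 61 were called at the high dose alone, 9 at the low dose alone and 1 at the medium dose alone. The 7 kept a single direction over the doses, and 6 of them in 4 regions rose. In 66 of the 76 high-dose probes the 5 high-dose mice all lay to one side of the 5 vehicle mice. The same share is not given for the other called probes, and a call itself favours such separation. It is therefore not read as a trait of lincRNAs.

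Regions named by their high-dose change had to show no overlap between high-dose and vehicle mice. Where this separation is described below, it is a condition of the naming and not added evidence. Among the regions named, the largest increase was in chr4:149445201-149445902_F, a region of 702 bases. Its leading probe read -1.27, -1.09, -0.79, -1.10 and -1.25 in the vehicle lungs, -0.18, 0.02, -0.26 and -0.26 in low-dose lungs, -0.50, 0.01, -0.60, -0.40 and 0.28 in medium-dose lungs, and 0.05, 0.40, 0.13, 0.59 and 0.48 in high-dose lungs. Every dosed mouse lay above every vehicle mouse, and the low and medium doses overlapped. The changes were 0.93 ± 0.15 (low), 0.86 ± 0.15 (medium) and 1.43 ± 0.15 (high; SE), with an adjusted p of 4.05e-06 for the last. The other probes of the region rose by 1.11 and 0.93 at the high dose, so all 3 were called.

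A region on chromosome 17, chr17:29183003-29217681_R, came next. Its leading probe read -0.38, -0.33, -0.15, -0.19 and -0.37 in vehicle lung and 0.20, 0.49, 0.42 and 0.55 in low-dose lung, then 0.81, 0.79, 0.09, 0.62 and 0.91 in medium-dose lung and 0.95, 0.91, 0.60, 1.16 and 1.01 in high-dose lung. No dosed mouse overlapped a vehicle mouse. The changes were 0.70 ± 0.13, 0.93 ± 0.13 and 1.21 ± 0.13 (SE), with an adjusted p of 5.97e-06 at the high dose. Of its 5 probes 4 were called at the high dose (1.21, 1.20, 0.69 and 0.59), and the fifth, detected on 1 lung array, read 0.11. At the low dose its adjusted p was 0.0119, and 0.0593 without mouse 10.

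On the same chromosome, chr17:29374758-29387733_F rose at a single one of its 5 probes. That probe had a median of 1.04 in vehicle lung, with no overlap with the high dose, and read 1.81, 2.17, 1.99, 2.33 and 2.21 in high-dose lung, a change of 0.98 ± 0.13 (adjusted p = 9.27e-05). The other 4 probes read -0.06 to -0.01, and were detected on 19, 17, 1 and 0 of the 19 lung arrays.

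A cluster of nested regions on the forward strand of chromosome 1 rose together. In chr1:163508244-163586072_F, 77829 bases long, the leading probe read -0.13, -0.30, -0.25, -0.60 and -0.45 in vehicle lung and 0.48, 1.06, 0.94, 0.51 and 0.71 at the high dose. The groups did not overlap, and the changes were 0.56, 0.66 and 1.09 ± 0.12 (SE; adjusted p = 9.11e-06 at the high dose), with 4 of 5 probes called. Inside it lie chr1:163528200-163528398_F, of 199 bases, with all 3 probes called (leading change 0.86 ± 0.09, adjusted p = 3.9e-06), chr1:163528792-163529312_F (0.79 ± 0.16) and chr1:163527603-163527999_F (0.77 ± 0.12). These regions cover the same stretch and are not separate observations.

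For a pair of regions the lung arrays went from not detected to detected. In chr1:92177032-92180487_F the leading probe was detected on 0 of 5 vehicle, 0 of 4 low-dose, 4 of 5 medium-dose and 5 of 5 high-dose lung arrays, and on no liver or forestomach array. It read -0.60, -0.00, -0.45, -0.28 and -0.44 in vehicle lung and 0.53, 0.79, 0.34, 0.81 and 0.90 at the high dose. The change was 1.02 ± 0.12 (adjusted p = 2.38e-05), and since vehicle lung was not well above background, the signal was at least 1.61-fold higher. All 3 probes of the region were called. In chr17:71183978-71185384_F the leading probe was detected on no vehicle and all 5 high-dose lung arrays and rose by 0.96 ± 0.11 (adjusted p = 1.24e-05), at least 1.47-fold. It was detected on 11 liver arrays. Its high-dose change in liver, from all liver arrays with no block, was 0.02 ± 0.30. Within slides the high-dose mice differed from vehicle by 0.63 on the second liver slide. On the third liver slide, which detected few lincRNA probes, the difference was 0.03. The first liver slide held no high-dose array. Whether the rise was confined to lung is not read from these values.

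Other increases were smaller. The 2 leading probes of chr2:128137419-128141735_R rose by 0.92 ± 0.21 (adjusted p = 0.011) and 0.91 ± 0.15 (adjusted p = 0.000669), and the second of them also at the low (0.69) and medium (0.69) doses. Its low-dose call was lost without mouse 1, 2, 3, 4, 8, 9 or 10 (adjusted p = 0.0638 to 0.177), and its medium-dose call without mouse 1 (adjusted p = 0.0559) or 12 (adjusted p = 0.0525). In chr6:108162092-108162886_R the leading probe rose by 0.88 ± 0.20 (adjusted p = 0.00833), with vehicle mice between -0.87 and -0.10 and high-dose mice between 0.38 and 0.71. The probe in chr11:120041124-120052299_R rose by 0.80 ± 0.13 (adjusted p = 0.000831), alone among the 10 of its region. In chr13:48620882-48643532_R a probe rose at all 3 doses, by 1.07 ± 0.16, 0.84 ± 0.15 and 0.73 ± 0.15 (adjusted p = 0.0048 at the high dose), with vehicle mice between -1.76 and -0.88 and low-dose mice between -0.48 and 0.05. The smallest SE among these increases was in chr1:82895400-82897576_F, from 0.05, 0.37, 0.06, 0.25 and 0.28 in vehicle lung to 0.94, 1.02, 0.87, 0.99 and 1.08 at the high dose (0.78 ± 0.07, adjusted p = 1.49e-06).

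**Figure D4:**
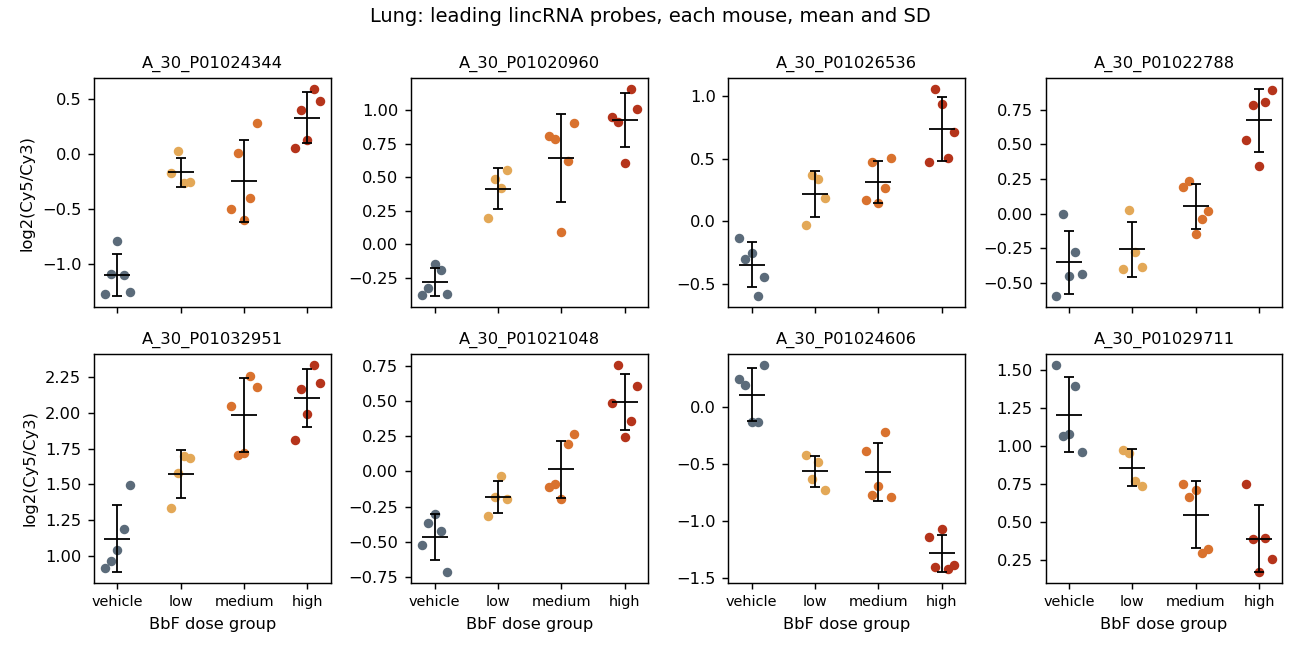
Log2 ratio to the reference (vertical axis) in each lung (points) by BbF dose group (horizontal axis), with mean and SD, for the 6 largest increases and 2 largest decreases among the regions named in the text (chromosome 18 left out, 1 probe per region), each panel under its probe. In A_30_P01024344 of chr4:149445201-149445902_F every dosed mouse lies above every vehicle mouse, and in A_30_P01024606 of chr5:35975265-35982561_F every dosed mouse lies below.

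The largest decrease was in chr5:35975265-35982561_F, 7297 bases long. Its leading probe read 0.25, 0.20, -0.13, -0.13 and 0.37 in vehicle lung, -0.42, -0.63, -0.48 and -0.72 in low-dose lung, -0.39, -0.77, -0.69, -0.22 and -0.79 in medium-dose lung and -1.14, -1.40, -1.07, -1.42 and -1.39 in high-dose lung. Vehicle, intermediate and high doses formed separate ranges. The changes were -0.68 ± 0.13, -0.68 ± 0.12 and -1.40 ± 0.12 (SE; adjusted p = 4.52e-07 at the high dose), and all 4 probes fell, the others by -1.03, -0.99 and -0.81. With median centring the high-dose change was -0.86 and still called, and the low-dose (-0.38, adjusted p = 0.461) and medium-dose (-0.40, adjusted p = 0.264) calls were lost. Without mouse 10 the low-dose call was lost too (adjusted p = 0.0566).

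The other named decreases lost their call with median centring. They lay in chr3:37568488-37568964_F (-0.81 ± 0.12, adjusted p = 0.000391), chr5:26323150-26357875_R (-0.74 ± 0.13), chr9:31873801-31874407_F (-0.69 ± 0.10), chr5:22801058-22939737_F (-0.68 ± 0.16), chr15:68161768-68193518_R (-0.68 ± 0.10), chr3:85783094-85783408_F (-0.68 ± 0.09) and chr11:95627874-95640824_R (-0.64 ± 0.15). The region on chromosome 15 was the best covered, since 4 of its 5 probes were called and the fifth changed by -0.45. Its leading probe read 3.01, 2.73, 2.49, 2.82 and 3.08 in vehicle lung and 2.30, 2.21, 2.21, 2.01 and 1.99 at the high dose, with no overlap. In each of the other regions listed with it a single probe was called. In chr5:22801058-22939737_F another probe, detected on all 19 lung arrays, changed by 0.01. The second probe of chr3:37568488-37568964_F, detected on 1 lung array, changed by -0.03. All 12 named increases kept their call with median centring. For the named increases and decreases the difference from vehicle within each of the 3 lung slides had a single sign. The naming rule, which required no overlap with the vehicle mice, fixed this in advance, so it is no check of the slides.

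Some lincRNA probes were called at the low dose and not at the high dose, which by itself does not show that the doses differed. Of 21 probes called at the low dose, 12 were not called at the high dose, and this difference was tested directly after the calls had been seen. The same share among all 192 probes called at the low dose is not given, so it is not read as a trait of lincRNAs. The high dose differed from the low dose at 13 lincRNA probes in 5 regions (5 higher and 8 lower at the high dose), where 0.444% of all probes were called, and 6 of the 12 were among them. In chr9:14460976-14488051_F the leading probe ran from -3.34 to -3.15 in vehicle lung, from -2.50 to -2.04 in low-dose lung, from -2.82 to -2.41 in medium-dose lung and from -3.62 to -2.85 in high-dose lung. The low-dose mice lay above all vehicle and high-dose mice and overlapped the medium-dose mice, and the high-dose and vehicle mice overlapped.

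The difference between the high and the low dose there was -0.97 ± 0.13 (SE; adjusted p = 0.000479), and 4 probes of the region were called (-0.97, -0.81, -0.76 and -0.70). In chr17:34018371-34019394_R, 3 probes were lower at the high dose than at the low dose (-0.79, -0.74 and -0.60). With median centring the leading probes of both regions lost the call (-0.71, adjusted p = 0.119, and -0.56, adjusted p = 0.254). The probes in chr17:95149413-95174473_F (-0.57, adjusted p = 0.0638), in the overlapping chr17:95150800-95180650_F (-0.53, adjusted p = 0.245), in chr5:74487385-74497428_F (-0.35, adjusted p = 0.174) and in chr6:129151512-129208737_R (-0.22, adjusted p = 0.618) had been called at the low dose, and their high-dose and low-dose values were not shown to differ. The regions that were higher at the high than at the low dose were chr1:92177032-92180487_F (0.93, 0.79 and 0.60 at its 3 probes) and chr17:71183978-71185384_F (0.67 and 0.59). Their leading probes were detected on no low-dose lung array, so these differences are against signal not well above background.

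**Figure D5:**
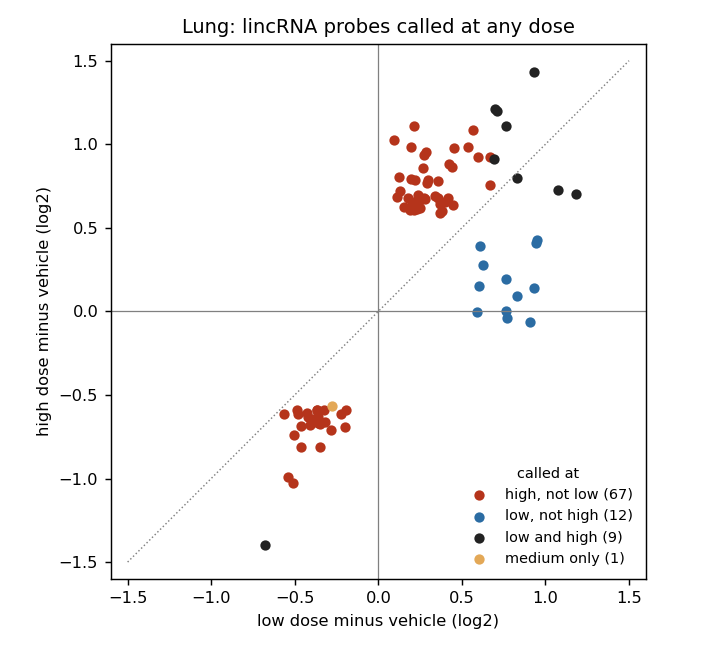
Change from vehicle in lung at the low dose (horizontal axis, log2) against the high dose (vertical axis, log2) for the 89 lincRNA probes called at any dose, coloured by where they were called. Both changes share the vehicle mice: 67 were called at the high and not the low dose, 12 at the low and not the high dose, 9 at both and 1 at the medium dose alone.

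Regions called in lung lay on 16 of 20 chromosomes that carry members, with 15 probes on chromosome 1, 10 on chromosome 6 and 8 on chromosome 17, and none on chromosomes 7, 10, 12 and X. Shorter regions held more of them: 0.803% of probes were called in the third of probes with the shortest regions (62 to 5076 bases, 32 probes), against 0.359% (21 probes) and 0.362% (23 probes) in the others. This is a description, as neighbouring probes share a transcript. Of the 3382 regions with at least 3 probes, 40 had a probe called at the high dose, 18 had 2 or more and 6 had all, and in 30 of the 40 all probes changed in the same direction.

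In liver no lincRNA probe was called at the low, medium or high dose or for the trend, where 0, 0, 0.00359 and 0.00898% of all probes were called. In limma's test 654, 742, 1040 and 1111 lincRNA probes had an unadjusted p below 0.05, which are 4.04, 4.59, 6.43 and 6.87% of them against 3.41, 4.53, 7.46 and 8.34% of all probes. The third slide, which detected few of them, held 3 of the 5 high-dose arrays and 1 of the 5 vehicle arrays. With the slide as a block, limma called 4 lincRNA probes for the medium dose and 10 in 7 regions for the high dose (5 higher, 5 lower). Over all probes 0.104% and 0.25% were called in that fit. Without the third slide (4 vehicle, 3 low, 3 medium and 2 high arrays) it called 20 lincRNA probes for the medium dose. For the high dose it called 36 in 26 regions (24 higher, 12 lower). Over all probes 0.377% and 0.747% were called in this reduced fit. The slide-block and the reduced fit shared 4 high-dose probes.

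The liver decrease that the naming rule selected was in chr5:22801058-22939737_F, whose leading probe also fell in lung. It read 0.84, 0.98, 0.83, 0.89 and 0.80 in vehicle liver and 0.51, 0.12, -0.07, 0.36 and 0.42 at the high dose, with no overlap, as the rule required. The change was -0.62 ± 0.12 with the slide as a block (adjusted p = 0.0166) and -0.60 without it (adjusted p = 0.141). Another probe of the region, detected on 12 liver arrays, changed by -0.23 in liver without the block. Chosen after its values were seen, chr17:26911397-26917047_F led the fit without the third slide, with 10 probes higher at the high dose by 0.59 to 0.88. A probe of it detected on all 12 arrays lay between -0.04 and 0.34 in the 4 vehicle livers and at 0.89 and 1.05 in the 2 high-dose livers. In the same fit probes of chr4:149445201-149445902_F (0.92 and 0.76), chr6:108162092-108162886_R (0.97) and chr1:163508244-163586072_F (0.68) were higher, which are 4 probes also called in lung.

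With all arrays and no block, the leading lung regions were not called in the other tissues. For the leading probe of chr4:149445201-149445902_F the high-dose change was 0.82 ± 0.29 in liver (adjusted p = 0.54) and 0.49 ± 0.24 in forestomach (adjusted p = 0.59). For chr17:29183003-29217681_R it was 0.29 and 0.35, for chr1:163508244-163586072_F 0.54 and 0.37, and for chr5:35975265-35982561_F -0.36 and -0.43. Without the third liver slide the leading probes of chr4:149445201-149445902_F (0.76, adjusted p = 0.0173) and chr1:163508244-163586072_F (0.68, adjusted p = 0.0441) were called in liver.

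In forestomach no lincRNA probe was called at the low, medium or high dose or for the trend, where 0, 0, 0.07 and 0.0611% of all probes were called. In limma's test 818, 821, 1209 and 1149 of them had an unadjusted p below 0.05, which are 5.06, 5.07, 7.47 and 7.10% against 4.62, 5.68, 8.70 and 8.57% of all probes. Normexp correction and the authors' table also gave 0 calls for the high dose, median centring 7 and the filter on dim probes 1. With the slide as a block 0.0988% of all probes were called at the high dose. A single lincRNA probe was among them, in chr12:110842154-110883594_F. It read 2.02, 3.13, 2.88, 2.32 and 1.75 in vehicle forestomach and 1.36, 1.30, 1.12, 1.16 and 1.64 at the high dose, with no overlap, as the naming rule required. The change was -1.11 ± 0.25 without the block (adjusted p = 0.119) and -1.11 with it (adjusted p = 0.0485). Without mouse 18, which showed liver-restricted probes in its forestomach, 1 lincRNA probe was called at the high dose.

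Whether the high-dose change differed between tissues was tested for each probe. Between lung and liver it differed at 9 lincRNA probes in 7 regions, and between lung and forestomach at 53 in 36 regions. These are 0.0556% and 0.328% of the lincRNA probes. Over all probes 0.192% and 0.902% were called. Without the third liver slide the lung to liver count of lincRNA probes was 43, where 0.923% of all probes were called. With mouse as a block it was 2, where 0.0754% of all probes were called. Loess gave 6 positive and 3 negative differences from liver and 31 and 22 from forestomach, and median centring gave 14 and 0, and 18 and 1. The leading differences from liver that could be sized were 1.10 in chr17:29374758-29387733_F (adjusted p = 0.0056) and -1.04 in chr5:35975265-35982561_F (adjusted p = 0.0346), where median centring gave 0.52 with the opposite sign. With mouse as a block both lost the call (adjusted p = 0.0893 and 0.0509), and without the third liver slide both kept it (1.09 and -0.97). Differences were also called in chr1:92177032-92180487_F, chr16:4867322-4874772_F and chr17:29183003-29217681_R, whose probes were well above background on no vehicle liver array, so that no size is read from them here.

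From forestomach the differences were -1.23 in chr4:88583425-88584070_R (adjusted p = 0.0482), 1.19 in chr12:110842154-110883594_F (adjusted p = 0.0227), 1.07 in chr17:29374758-29387733_F (adjusted p = 0.000929) and 1.02 in chr2:128137419-128141735_R (adjusted p = 0.00797). A difference was also called in chr1:92177032-92180487_F, which was detected on no forestomach array. With mouse as a block chr4:88583425-88584070_R lost the call (adjusted p = 0.0597) and the others kept it. Its probe was detected on 1 of 5 vehicle lung arrays. For chr4:88583425-88584070_R the change was 0.88 in forestomach and -0.35 in lung, and neither passed the test by itself.

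Named long noncoding RNA genes on the same array are few. Of 29 on a list, 21 had a probe (69 probes), and 14 had a probe detected on every lung array. In lung 5 of their probes were called with the low dose, 1 with the medium and 2 with the high dose, and none in liver or forestomach at the high dose. Over all probes 0.345, 0.469 and 1.45% were called in lung. The low-dose count comes from 1 gene and is not read as a trait of the class. Neat1, the architectural RNA of nuclear paraspeckles, gave all 5 low-dose calls (0.80 to 1.13). Its leading probe read -1.52 to -0.53 in vehicle lung, -0.21 to 0.15 in low-dose lung, -0.78 to -0.43 in medium-dose lung and -0.45 to 0.07 in high-dose lung. The changes were 1.13, 0.56 and 0.90 (adjusted p = 0.000769 at the high dose), and the other Neat1 probes missed the threshold at the high dose. Kcnq1ot1, the imprinted antisense RNA of the Kcnq1 locus, was lower at 1 probe (-0.67 with the medium and -0.78 with the high dose, adjusted p = 0.00179 for the last). The probes listed under Trp53cor1, a p53-induced lincRNA, were detected on at most 1 lung array. Whether a region named above covers the same locus was not analysed.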

How the data were processed

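RNA of 59 tissues was hybridised on Agilent mouse 8x60K arrays, tissue RNA in Cy5 and a reference pool of cell-line RNA in Cy3, without dye swap. The deposited scanner files hold an intensity per spot from Feature Extraction 10.7.3.1, and a deposited table holds the authors' LOWESS-normalised log2 ratios, used as an alternative. Median intensities were used with no background correction and normalised by loess within each array (R 4.3.3, limma 3.58.1), control and non-uniform spots had weight 0, non-uniform spots were left out (484 missing values), and spots of a probe were averaged. limma was fitted to all 55681 probes of a tissue with dose group as the factor, with Benjamini-Hochberg adjustment, and a call needed an adjusted p of 0.05 or less and 1.5-fold. The study used the Fs statistic of MAANOVA, which was not run. Loess assumes that most probes do not shift, so a general shift would be removed. The number of arrays limits the precision.

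Genes named in the text are, per tissue at the high dose, up to 12 increases and 8 decreases among called probes detected on every array of the vehicle or high-dose group and with no overlap between these groups, 1 per region, from the fit with the slide as a block where there were none; up to 6 tissue-restricted probes per tissue; probes called at all lung doses; and up to 5 per tissue difference. Regions on chromosome 18 were counted and not named. The members and gene lists were chosen with earlier results of these data known, and the comparison of high with low dose was added after the data were seen. The scripts were tested on simulated data. Probe sequences, neighbouring genes and coordinates of other probes were not analysed here. Same-numbered samples are the same animal by the labels. Their deviations from group means correlated with a median r of -0.03 (lung and liver), 0.03 (lung and forestomach) and 0.03 (liver and forestomach). Alternatives were other scalings and background corrections, a filter on dim probes, the slide or mouse as a block, regions in place of probes and leaving out each mouse.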

Additional observations from a re-analysis of the deposited data

Results flagged for a closer look

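The lung of medium-dose mouse 13 detected 54.7% of the lincRNA probes, apart from the next medium-dose lung at 28.0%. Among vehicle livers the array on the third slide detected 2.40%, and the nearest other 20.4%. In chr6:108162092-108162886_R 1 vehicle lung read -0.87 at the leading probe and the nearest other -0.27. These 3 were found among 66 groups of samples, and chance alone sets apart about 1 in 20.

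The high-dose change differed between lung and liver by 1.12 in chr1:92177032-92180487_F, 1.10 in chr17:29374758-29387733_F, -1.04 in chr5:35975265-35982561_F, 1.00 in chr17:29183003-29217681_R and 0.91 in chr16:4867322-4874772_F. Between lung and forestomach it differed by -1.23 in chr4:88583425-88584070_R, 1.19 in chr12:110842154-110883594_F, 1.10 in chr1:92177032-92180487_F, 1.07 in chr17:29374758-29387733_F and 1.02 in chr2:128137419-128141735_R. Each had an adjusted p of 0.05 or less in limma's test of the difference itself with all arrays and no block.

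With mouse as a block the 5 differences from liver and that of chr4:88583425-88584070_R lost the call (adjusted p = 0.0509 to 0.196). Of the results that leave out 1 mouse, 38 lost the call and 62 kept it. The 38 were in chr1:92177032-92180487_F against liver (without mouse 1, 3, 4, 17, 19 or 20), chr5:35975265-35982561_F (the same mice), chr17:29183003-29217681_R (1, 2, 3, 4, 19 or 20), chr16:4867322-4874772_F (2, 3, 4, 17, 18, 19 or 20), chr4:88583425-88584070_R (1, 2, 4, 5, 17, 19 or 20) and chr12:110842154-110883594_F (3, 4, 16, 17, 18 or 19), with adjusted p from 0.0592 to 0.165. Without the third liver slide the differences from liver were 1.43, 1.09, -0.97, 0.74 and 0.76 in the order above, and the last 2 lost the call (adjusted p = 0.0545 and 0.0672). The probe of chr1:92177032-92180487_F was detected on no liver or forestomach array and on no vehicle lung array, and those of chr17:29183003-29217681_R and chr16:4867322-4874772_F on no vehicle liver array, so the size of these differences is not determined.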

How the results depend on the processing

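Counts are of called lincRNA probes. Median centring gave 149 in lung at the high dose, 115 for the lung trend, 7 in forestomach at the high dose and 2 for its trend, 754, 600 and 524 between vehicle tissues (lung and liver, lung and forestomach, forestomach and liver), 14 and 19 for the high-dose difference of lung from liver and from forestomach, and 7 for high against low dose in lung. It turned the lung minus liver difference of chr5:35975265-35982561_F to 0.52. The authors' table gave 15 for lung minus liver. The filter on dim probes gave 2 in liver at the high dose, 1 for its trend, 1 in forestomach at the high dose, 2 for its trend and 31 for lung minus liver. Counted as regions there were 13, 43 and 36 in lung (low, high, trend), 817, 719 and 571 between vehicle tissues and 5 for high against low dose.

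The slide as a block gave 4, 10 and 9 in liver (medium, high, trend) and 1 and 4 in forestomach (high, trend). With mouse as a replicate block, lung minus liver had 2, and detection in vehicle mice had an adjusted p of 0.812 in each comparison. Without the third slide there were 20, 36 and 33 in liver and 43 for lung minus liver, detection differed from liver by -1.24 (lung) and -2.85 (forestomach), and liver had 303 restricted probes. With the positive-and-significant flag in place of well above background, detection differed by -3.03 and -3.98, and 20, 26 and 9 probes were restricted to lung, liver and forestomach.

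Leaving out each mouse gave 19 to 25, 13 to 29 and 61 to 84 in lung (low, medium, high; 29 without mouse 13), 47 to 71 for its trend, 10 to 22 for high against low dose (22 without mouse 18), 0 to 1 in liver at the high dose and for its trend, 0 to 3 (3 without mouse 1), 0 to 0, 0 to 2 and 0 to 1 in forestomach (low, medium, high, trend), 2 to 46 for lung minus liver (2 without mouse 1) and 26 to 62 for lung minus forestomach (26 without mouse 17). Between vehicle tissues it gave 1362 to 1490, 1156 to 1254 and 881 to 1100, and detection differed by -2.28 to 5.55 (lung and liver), 0.41 to 2.86 (lung and forestomach) and -2.70 to 4.86 (forestomach and liver), with the lowest values for liver without mouse 5. The cause of these changes was not tested.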
